A study of Mus musculus with 8 samples.

Results

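Nuclei carrying the class name NeuronLike-Gad1 were examined among nuclei of the mouse visual cortex (VC) that had been sorted as negative for NeuN. The members were all nuclei to which the authors' table gives that name, 783 of 44021, and they came from 8 of 8 libraries. Gad1 and Gad2 encode the glutamate decarboxylases that make GABA, the main inhibitory transmitter of the cortex, and the transcripts mark inhibitory neurons, which in the cortex are interneurons. NeuN, the product of Rbfox3, is found in the nuclei of most but not all types of neuron, so a NeuN-negative sort is expected to hold glia and vascular cells with few neurons. Slc17a6 encodes the vesicular glutamate transporter VGlut2 and names the other neuron-like class of the table, NeuronLike-Slc17a6, with 170 nuclei. Expression per gene was not analysed here, so neither class could be checked against Gad1, Gad2 or Slc17a6, and each is called by the name in the table.

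All mice were C57BL/6J at postnatal day 14, and single nucleus RNA sequencing on the 10x platform was made from the frozen VC. There were 4 groups of 2 libraries, 1 male and 1 female, and by the study's methods each library pooled 2 mice of 1 genotype and sex. VGlut2 WT mice carried the floxed allele alone (VGlut2 f/f). VGlut2 cKO mice also carried the cre written ROR acre in the labels (VGlut2 f/f;ROR acre), which by the methods is expressed from the RORα gene and reaches neurons of the thalamus. Ip3r2 KO mice lacked the type 2 IP3 receptor, a calcium channel of internal stores, and Ip3r2 WT mice were their controls, per the methods either littermates or in-house mice of the same strain. A WT and a mutant sample were processed in parallel on each day. Which sample shared a day is not given in the sources used here, and day, sex and mouse cannot be told apart within a group.

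Libraries held 4767 to 5920 nuclei and 8824112 to 12948023 UMIs (unique molecular identifiers, 1 per captured transcript), with a library median of 1343 to 2242 UMIs per nucleus. Barcodes that occur in another library were found for 475 nuclei (1.08%), 10 of them NeuronLike-Gad1 (1.28% of the class), and no barcode was shared by NeuronLike-Gad1 nuclei of different libraries.

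NeuronLike-Gad1 took a small and uneven share of the sort. It held 53 of 5821 nuclei in the VGlut2 WT male library, 0.910% (Wilson 95% interval 0.697 to 1.19). The VGlut2 cKO male library held 84 nuclei, 1.42% (1.15 to 1.75). In the VGlut2 WT female library there were 122, 2.28% (1.91 to 2.71). These 3 intervals left a gap between the female library and the male ones. The VGlut2 cKO female library held 92 nuclei, 1.62% (1.32 to 1.98). In the Ip3r2 model the male libraries held 111 in WT, 2.33% (1.94 to 2.80), and 114 in KO, 2.07% (1.73 to 2.49). The female libraries held 132 in WT, 2.46% (2.07 to 2.91), and 75 in KO, 1.34% (1.07 to 1.67). The lowest share was thus that of a WT library and the highest that of another WT library, a ratio of 2.70, which was second of the 17 classes after mature oligodendrocytes (MOL) at 3.08. Mitotic OPCs (oligodendrocyte precursor cells) came next at 2.64, and NeuronLike-Slc17a6 had 2.05. OPCs, astrocytes and microglia, which have far more nuclei, had ratios of 1.31, 1.35 and 1.49. Intervals cover counting error only.

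**Figure D1:**
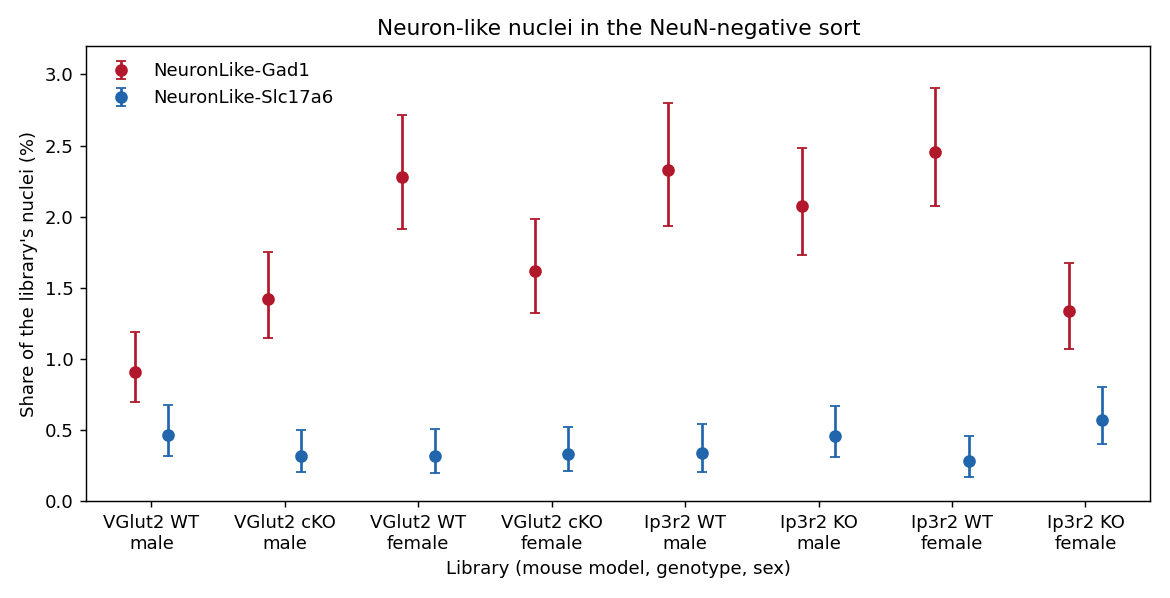
Share of each library's nuclei (%, y axis) given to NeuronLike-Gad1 (red) and NeuronLike-Slc17a6 (blue) in the 8 libraries (x axis). Points are shares and bars Wilson 95% intervals. NeuronLike-Gad1 ran from 0.910% to 2.46% and was above NeuronLike-Slc17a6 in every library.

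NeuronLike-Gad1 outnumbered NeuronLike-Slc17a6 in 8 of 8 libraries, but by very different factors. There were 1.96 NeuronLike-Gad1 nuclei for each NeuronLike-Slc17a6 nucleus in the VGlut2 WT male library and 2.34 in the Ip3r2 KO female library. The other 6 libraries had 4.42 to 8.80. The libraries with the fewest NeuronLike-Gad1 nuclei, 53 and 75, held the most NeuronLike-Slc17a6 nuclei, 27 and 32, and the library with the most, 132, held the fewest, 15. Set against the glial classes the number of NeuronLike-Gad1 nuclei ran from 10.7 to 29.9 per 1000 glia, from 3.31 to 10.8 per 100 astrocytes, from 4.52 to 12.9 per 100 OPCs and from 3.80 to 12.6 per 100 microglia.

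The share of NeuronLike-Gad1 was compared between genotypes to ask whether deletion of VGlut2 in the thalamus or loss of the IP3 receptor changed how many such nuclei the sort retained. It did not pass the test in either model. In the VGlut2 model it was 1.52% ± 0.142 in cKO and 1.59% ± 0.966 in WT (SD, n = 2), with a fold change in odds of 1.05 (95% interval 0.574 to 1.92, adjusted p = 0.980 in limma). The mean share was lower in cKO while the fold change was above 1, since the fold change compares means of log odds and not of percentages. The cKO library was above its WT counterpart in males and below it in females. In the Ip3r2 model the KO was lower in both sexes, with a fold change of 0.693 (0.378 to 1.27, adjusted p = 0.994 in limma). Limma called 0 of 17 classes (0%) in each model, with 0 and 1 classes at an unadjusted p under 0.05, and edgeR also called 0. The 1 was NeuronLike-Slc17a6, with 57 nuclei in Ip3r2 KO and 31 in WT.

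The difference between the models was not past the threshold either, at 0.60 on the log2 scale (95% interval -0.63 to 1.84, adjusted p = 0.959 in limma), where 0 of 17 classes (0%) were called, 1 class had an unadjusted p under 0.05 and edgeR called 0. Between the sexes the log2 difference was 0.24, female minus male (-0.25 to 0.73, adjusted p = 0.622 in limma), again with 0 of 17 classes (0%) called, 2 at an unadjusted p under 0.05 and 0 in edgeR. These directions turned when 1 VGlut2 library was left out. Without VGlut2 WT replicate 1, the male, the VGlut2 difference was -0.60 and the difference between models -0.066. Without VGlut2 cKO replicate 2, the female, the VGlut2 difference was -0.025, and without either VGlut2 WT library the sex difference was -0.12. With 2 libraries a group, differences inside these intervals are not excluded.

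The depth of the nuclei of the class differed between libraries. The median NeuronLike-Gad1 nucleus had 1350 UMIs in the VGlut2 WT male library and 1200.5 in the cKO male library. The female libraries of that model had 2411 in WT and 2749 in cKO. In the Ip3r2 model the medians were 1732 in the WT male library, 1774.5 in the KO male, 1748 in the WT female and 1944 in the KO female. The 2 female VGlut2 libraries therefore stood apart from the other 6. Divided by the median of all nuclei of the same library, NeuronLike-Gad1 was at 1.49 and 1.47 in those libraries and between 0.780 and 0.961 in the other 6. The highest library median was 2.29 times the lowest, rank 1 of 17 classes on this ratio, against 1.97 in NeuronLike-Slc17a6, next in order, 1.58 in astrocytes and 1.56 in microglia. This order is a description of these libraries, with no test.

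**Figure D2:**
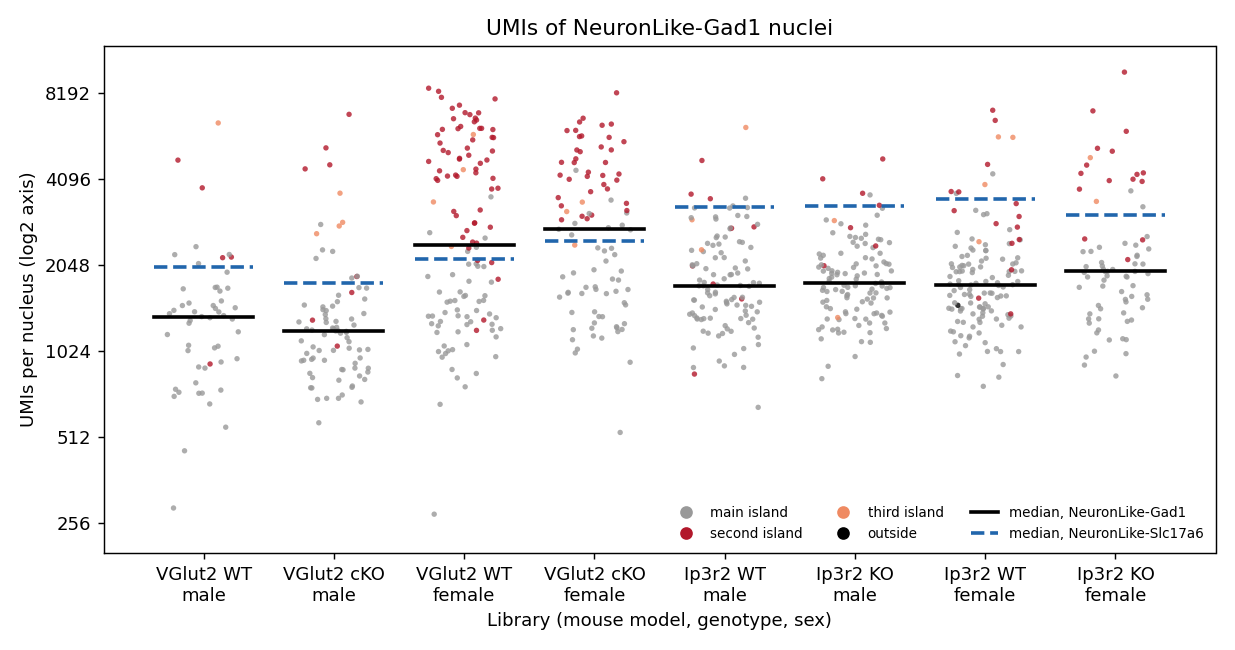
UMIs of each NeuronLike-Gad1 nucleus (log2 y axis) by library (x axis). Each point is a nucleus, coloured by its island in the deposited tSNE. Black lines are the medians of NeuronLike-Gad1 and dashed blue lines those of NeuronLike-Slc17a6. In the 2 female VGlut2 libraries many nuclei of the second island lie above 4000 UMIs, and there alone the black line is above the blue one.

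NeuronLike-Slc17a6 did not show the same pattern. Its medians in the VGlut2 libraries were 2014 and 1766 UMIs in males (WT and cKO) and 2149 and 2486 in females. The Ip3r2 libraries had 3259, 3293, 3479 and 3060. Relative to its library the class was at 1.31 to 1.73 in all 8, with no step at the female VGlut2 libraries.

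UMIs of NeuronLike-Gad1 did not pass the test between genotypes, at a log2 difference of 0.0100 (95% interval -0.38 to 0.40, unadjusted p = 0.959 in limma) for VGlut2 cKO minus WT and 0.09 (-0.29 to 0.48, unadjusted p = 0.628 in limma) for Ip3r2 KO minus WT. In each, 0 of 17 classes (0%) were called and 0 had an unadjusted p under 0.05. The VGlut2 value rested on which libraries were present. Without VGlut2 cKO replicate 1, the male, the log2 difference was 0.61 (adjusted p = 0.00183 in limma). Without replicate 2, the female, it was -0.59 (adjusted p = 0.00287 in limma), and without VGlut2 WT replicate 1, the male, -0.41, not past the threshold. A lone library in such a fit is assumed to vary like the other groups. In the fit of all 8 libraries the standard error was 0.19 in both models and common to all classes. The library medians of NeuronLike-Gad1 had an SD of 750 UMIs in VGlut2 WT and 1095 in VGlut2 cKO (n = 2). In Ip3r2 WT and KO it was 11.3 and 120. The interval of the VGlut2 model is thus narrower than the class's own libraries would give.

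Detected genes followed the UMIs. The library medians of NeuronLike-Gad1 were 819, 734, 1305.5 and 1351.5 genes in the VGlut2 model (WT male, cKO male, WT female, cKO female) and 999 to 1112 in the Ip3r2 model. The fold change was 0.963 (0.776 to 1.20, adjusted p = 0.933 in limma) in the VGlut2 model and 1.07 (0.861 to 1.33, adjusted p = 0.996 in limma) in the Ip3r2 model. Again 0 of 17 classes (0%) were called in each and 0 had an unadjusted p under 0.05. These intervals also used the spread common to all classes. The library medians of NeuronLike-Gad1 had an SD of 344 genes in VGlut2 WT and 437 in VGlut2 cKO (n = 2), so the VGlut2 interval is too narrow for this class. Without VGlut2 cKO replicate 2, the female, the log2 difference in the VGlut2 model was -0.49 (adjusted p = 0.00385 in limma). It was 0.39 without VGlut2 cKO replicate 1, the male, and 0.28 without VGlut2 WT replicate 2, the female, neither past the threshold.

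Between the sexes, a comparison of depth added after the values were seen, both UMIs and genes of NeuronLike-Gad1 were past the threshold. As the comparison was chosen with these values known, its p-values are not an independent test of the pattern. The female minus male log2 difference was 0.54 for UMIs (95% interval 0.30 to 0.79, adjusted p = 0.000872 in limma) and 0.42 for genes (0.21 to 0.62, adjusted p = 0.00266 in limma). On each measure NeuronLike-Gad1 was the 1 class called of 17 (5.88%). The difference was very uneven over the groups. For UMIs it was 0.84 in VGlut2 WT and 1.20 in cKO, against 0.013 in Ip3r2 WT and 0.13 in KO. It was thus above 0 in 4 of 4 groups and large in the VGlut2 model, while a difference of this contrast between the models was not tested. Without either VGlut2 WT library the log2 difference was 0.45 for UMIs (adjusted p = 0.204 in limma) and 0.33 for genes (adjusted p = 0.383 in limma), and without either VGlut2 cKO library 0.33 (adjusted p = 0.0297 in limma) and 0.26 (adjusted p = 0.0607 in limma). As the mean of log2 UMIs it was 0.56 (adjusted p = 0.0999 in limma). The spread behind these tests was common to all classes. The differences of NeuronLike-Gad1 itself ran over the groups from 0.013 to 1.20 for UMIs and from 0.011 to 0.88 for genes. The intervals and p-values thus rest on a spread smaller than that of this class. Sex, day and mice cannot be told apart. The mitochondrial share (-0.022, adjusted p = 0.722 in limma) and genes at 1000 to 2000 UMIs (0.033, adjusted p = 0.805 in limma) did not pass between the sexes, with 0 of 17 and 0 of 13 classes (0%) called and 2 and 0 at an unadjusted p under 0.05.

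In the authors' tSNE, a map in which nuclei with like expression lie close together, the class was not 1 cloud. Nuclei of the class were grouped by distance in the map, which gave a main island of 601 nuclei (76.8% of the class), a second of 158 (20.2%) and a smaller one of 23 (2.94%), called the third, with 1 nucleus elsewhere. All 3 were within the class's own territory. Of the 15 nearest nuclei of each NeuronLike-Gad1 nucleus, 99.9% carried the same name in the tSNE and 99.9% in the UMAP. The neighbours of other names were led by mitotic astrocytes (M-Astrocyte). They were 15 neighbours of 1 NeuronLike-Gad1 nucleus in the tSNE and 7 neighbours of 2 such nuclei in the UMAP. The islands were found after the depth of these libraries had been seen, so their values are a description and no test was made on them.

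Over all libraries the second island had the highest median UMIs of the 3 islands, with nuclei from 849 to 9714 UMIs. It was spread very unevenly over libraries. It took 61 of 122 NeuronLike-Gad1 nuclei in the VGlut2 WT female library, 50.0% (Wilson 95% interval 41.3 to 58.7), and 37 of 92 in the cKO female library, 40.2% (30.8 to 50.4). In the Ip3r2 KO female library it was 16 of 75, 21.3% (13.6 to 31.9). The other 5 libraries held 5 to 15 such nuclei, 6.14% to 11.4% of the class. The female VGlut2 libraries so gave 98 of the 158 nuclei (62.0%), while they gave 27.3% of the class. WT and cKO libraries of the female VGlut2 pair both showed it, and neither male library of that model did.

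**Figure D3:**
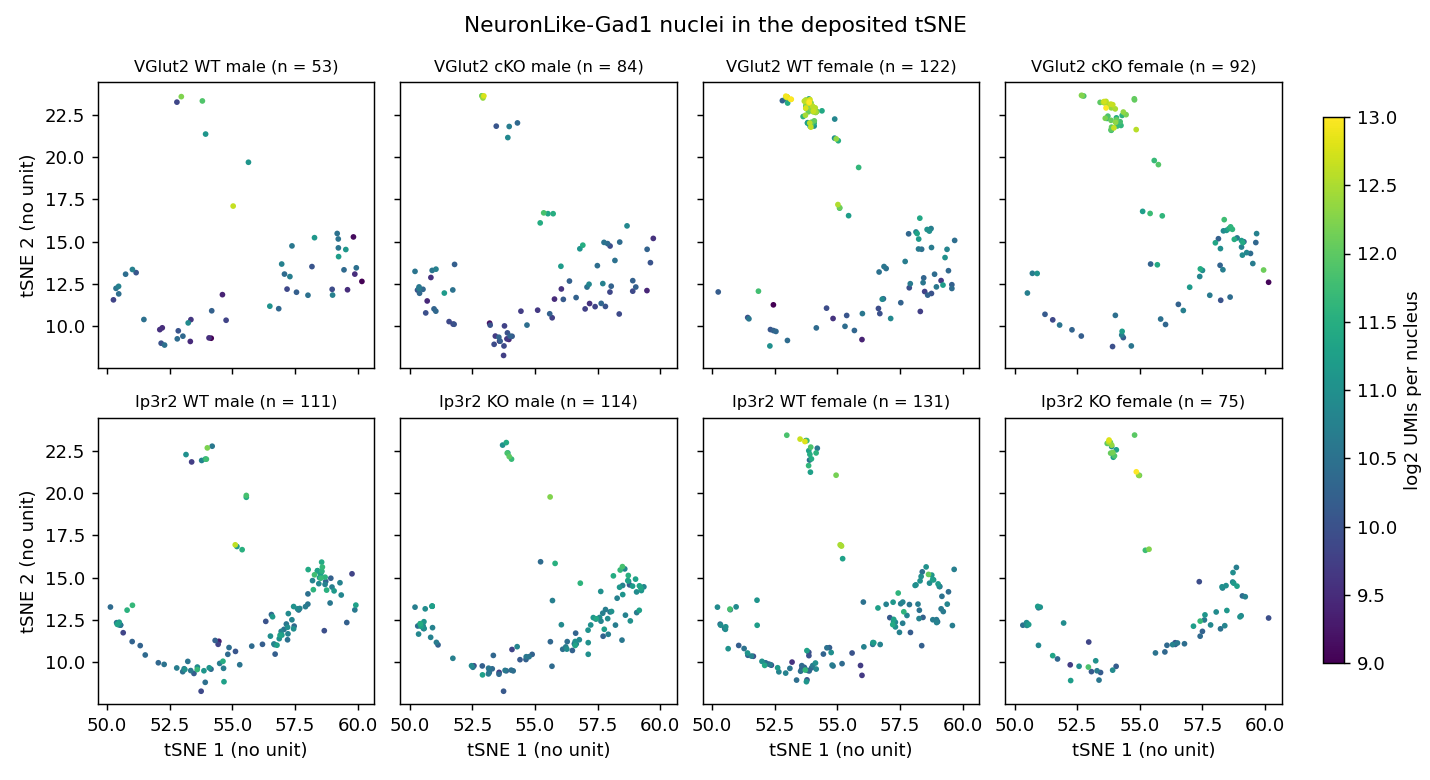
NeuronLike-Gad1 nuclei in the deposited tSNE (both axes without unit), 1 panel per library with its number of nuclei, coloured by log2 UMIs per nucleus. The nucleus lying elsewhere in the map is left out. The second island, at the top of each panel, holds 61 and 37 nuclei in the female VGlut2 panels and 5 to 16 in the others. Its median nucleus is deeper than that of the main island below.

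The median nucleus of the second island had 4224 UMIs and 1924.5 genes, against 1538 UMIs and 921 genes in the main island. Within libraries the ratio of the medians was 3.55 in the VGlut2 WT female library and 2.84 in the cKO female library. It was 1.65 to 2.81 in the other 6, so the second island was the deeper in all 8. The third island had a median of 3402 UMIs, from 1 to 4 nuclei per library. The mitochondrial share of UMIs was 3.27% in the second island, 3.37% in the main and 3.55% in the third.

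On the main island alone the female VGlut2 libraries did not stand above the other 6. Its median was 1324 UMIs in the VGlut2 WT male library, 1124.5 in the cKO male, 1356 in the WT female and 1649 in the cKO female, and 1643 to 1733 in the Ip3r2 libraries. The female minus male log2 difference was 0.034 in VGlut2 WT, 0.55 in VGlut2 cKO, 0.0057 in Ip3r2 WT and 0.0042 in Ip3r2 KO, with no test. Relative to the median of the library the main island ran from 0.736 to 0.883. In VGlut2 cKO it was 0.837 in the male library and 0.879 in the female. Its share of a library's nuclei was 0.807%, 1.22%, 1.06% and 0.915% in the VGlut2 libraries, in the order above. In the Ip3r2 libraries it was 2.08% and 1.91% in males (WT and KO) and 2.08% and 1.02% in females. The Ip3r2 KO female library was thus within the range of the VGlut2 libraries, and the other 3 Ip3r2 libraries lay above it. On the main island alone the Ip3r2 KO to WT fold in odds was 0.667 and that of VGlut2 cKO to WT 1.14, values with no test.

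NeuronLike-Gad1 nuclei were a large part of the deepest nuclei in the female VGlut2 libraries. Of the nuclei with more than 4000 UMIs, they were 45 of 164 in the WT female library (27.4%), second in number after MOL with 70, and 27 of 217 in the cKO female library (12.4%). In the other 6 they were 2 to 13 nuclei, 0.599% to 5.26%. The cut was the same in every library while library depth differed, so these percentages are not at like depth. The nuclei above it ran from 76 in the VGlut2 cKO male library to 472 in the Ip3r2 WT female library. In all, 101 NeuronLike-Gad1 nuclei (12.9%) passed 4000 UMIs, 99 of them outside the main island and 72 in the female VGlut2 libraries. A droplet with more than 1 nucleus would also be deep. By the methods doublets were removed with Scrublet before deposit, no caller was run here, and the part of doublets in these nuclei was not tested.

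The spread of depth within the class was wide. The SD of log2 UMIs among NeuronLike-Gad1 nuclei was 1.04 and 0.851 in the VGlut2 WT and cKO female libraries, 0.782 and 0.703 in the male ones, and 0.466 to 0.743 in the Ip3r2 libraries. The mean of 0.718 ± 0.180 (SD, n = 8) was second of 17 classes, between M-Astrocyte at 0.846 ± 0.120 and newly formed oligodendrocytes (NFOL) at 0.561 ± 0.0485. Neither neighbour was past the threshold against it (adjusted p = 0.0932 for both, exact sign flips over 8 libraries). NeuronLike-Slc17a6 was last, at 0.356 ± 0.101, and below NeuronLike-Gad1 in 8 of 8 libraries (adjusted p = 0.0312, exact sign flips). NeuronLike-Gad1 was wider than 12 of the 16 other classes, beside 33.8% of all 136 pairs of classes past the threshold on this measure. Astrocytes, OPCs and microglia were among the 12. Those calls need all 8 libraries: the count was 8 without the Ip3r2 KO female library and 0 without any other, where 7 libraries allow no exact p below 0.0156. On the main island alone, the SD exceeded that of astrocytes by 0.0030 and that of OPCs by 0.068, with no test. This cut took deep nuclei from NeuronLike-Gad1 only and left the other classes whole, so the comparison is not like for like.

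Within libraries, NeuronLike-Gad1 lay in the middle of the classes by UMIs. Over 8 libraries its medians averaged 1864 ± 512 UMIs, rank 10 of 17, just below OPCs at 2160 ± 342 and above M-Astrocyte at 1735.0 ± 289. It differed past the threshold from 11 of 16 classes, beside 89% of all pairs of classes, being higher than 5 and lower than 6. Against microglia, the resident immune cells, it was 1.76 times higher and above in 8 of 8 libraries (adjusted p = 0.00924, exact sign flips). NeuronLike-Slc17a6 nuclei had more UMIs than NeuronLike-Gad1 in 6 of 8 libraries, at a NeuronLike-Gad1 to NeuronLike-Slc17a6 ratio of 0.690 (adjusted p = 0.0351, exact sign flips). Astrocytes and OPCs were not past the threshold, at ratios of 0.812 (adjusted p = 0.0685) and 0.845 (adjusted p = 0.109, exact sign flips), and M-Astrocyte was not at 1.05 (adjusted p = 0.535). Leaving out 1 library gave 7 to 13 classes, with 7 without any of the 6 that are not female VGlut2 libraries, and the NeuronLike-Slc17a6 call was lost in those 6 (adjusted p up to 0.0702, exact sign flips).

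**Figure D4:**
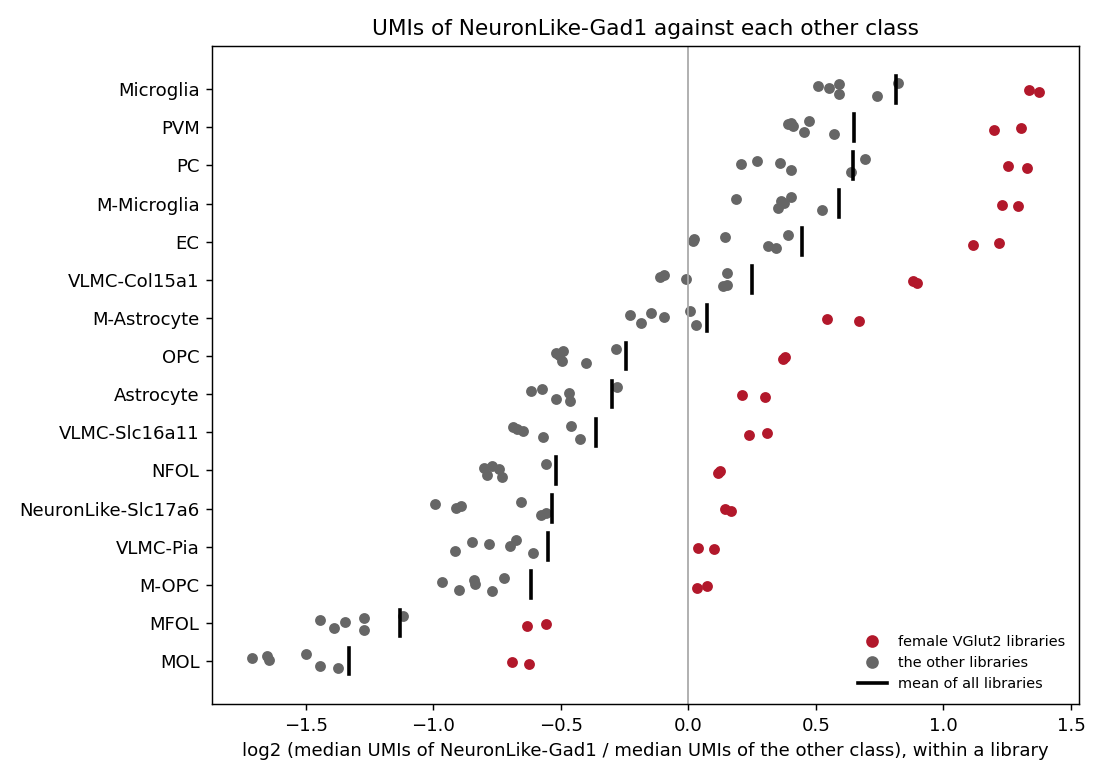
The log2 ratio of median UMIs of NeuronLike-Gad1 to each other class within a library (x axis), 1 row per class and 1 point per library, with the 2 female VGlut2 libraries in red and the mean as a black line. Against each of the 16 classes the 2 red points lie to the right of the other 6. NeuronLike-Gad1 was above microglia in 8 of 8 libraries and above NeuronLike-Slc17a6, astrocytes and OPCs only in the 2 red ones.

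The 2 libraries in which NeuronLike-Gad1 was above NeuronLike-Slc17a6, astrocytes and OPCs were the female VGlut2 libraries in each case. On the main island alone NeuronLike-Gad1 was below these 3 classes in 8 of 8 libraries, at ratios of 0.578, 0.679 and 0.707, and above microglia in 8 of 8, at 1.47. Only NeuronLike-Gad1 was cut to its main island, and the other classes were kept whole. The cut took out 99 of its 101 nuclei above 4000 UMIs and so lowers its median by construction. These ratios are therefore not a like comparison, and no test was made on them.

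By detected genes the class differed from 10 of 16 classes, beside 87.5% of all pairs, higher than 4 and lower than 6. Its 1045 ± 213 genes (rank 11) stood between M-Astrocyte at 1129 ± 151 and VLMC-Col15a1, a class of leptomeningeal cells, at 957.8 ± 159. It did not differ past the threshold from either neighbour (adjusted p = 0.243 and 0.399, exact sign flips). NeuronLike-Slc17a6 had more genes in 7 of 8 libraries, at a ratio of 0.748 (adjusted p = 0.0277, exact sign flips), and microglia fewer in 8 of 8, at 1.39 (adjusted p = 0.00975, exact sign flips). The call against NeuronLike-Slc17a6 was lost without any 1 of the 6 libraries that are not female VGlut2 (adjusted p up to 0.0554, exact sign flips).

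The mitochondrial share of UMIs varied little between the libraries, with the highest 1.05 times the lowest. It was 3.29%, 3.40%, 3.31% and 3.31% in the VGlut2 libraries (WT male, cKO male, WT female, cKO female) and 3.44%, 3.37%, 3.28% and 3.39% in the Ip3r2 libraries (WT male, KO male, WT female, KO female). The female VGlut2 libraries, which stood apart in UMIs, lay inside the range of the others. The mean was 3.35% ± 0.0595 (SD, n = 8). By this measure 15 of 16 classes differed past the threshold, beside 81.6% of all pairs, 11 above NeuronLike-Gad1 and 4 below. NeuronLike-Slc17a6, just above in the order at 3.41% ± 0.110, was the exception (adjusted p = 0.192, exact sign flips). OPCs, just below at 3.24% ± 0.0732, were lower in 7 of 8 libraries (adjusted p = 0.0290, exact sign flips), a call lost without any 1 of the 6 libraries that are not female VGlut2 (adjusted p up to 0.0580). Astrocytes at 4.27% ± 0.0955 and microglia at 4.26% ± 0.127 were higher in 8 of 8 (adjusted p = 0.0106 each, exact sign flips). Both neuron-like classes and the oligodendrocyte lineage had means of 2.80% to 3.47%, and every other class lay at 3.98% or above.

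**Figure D5:**
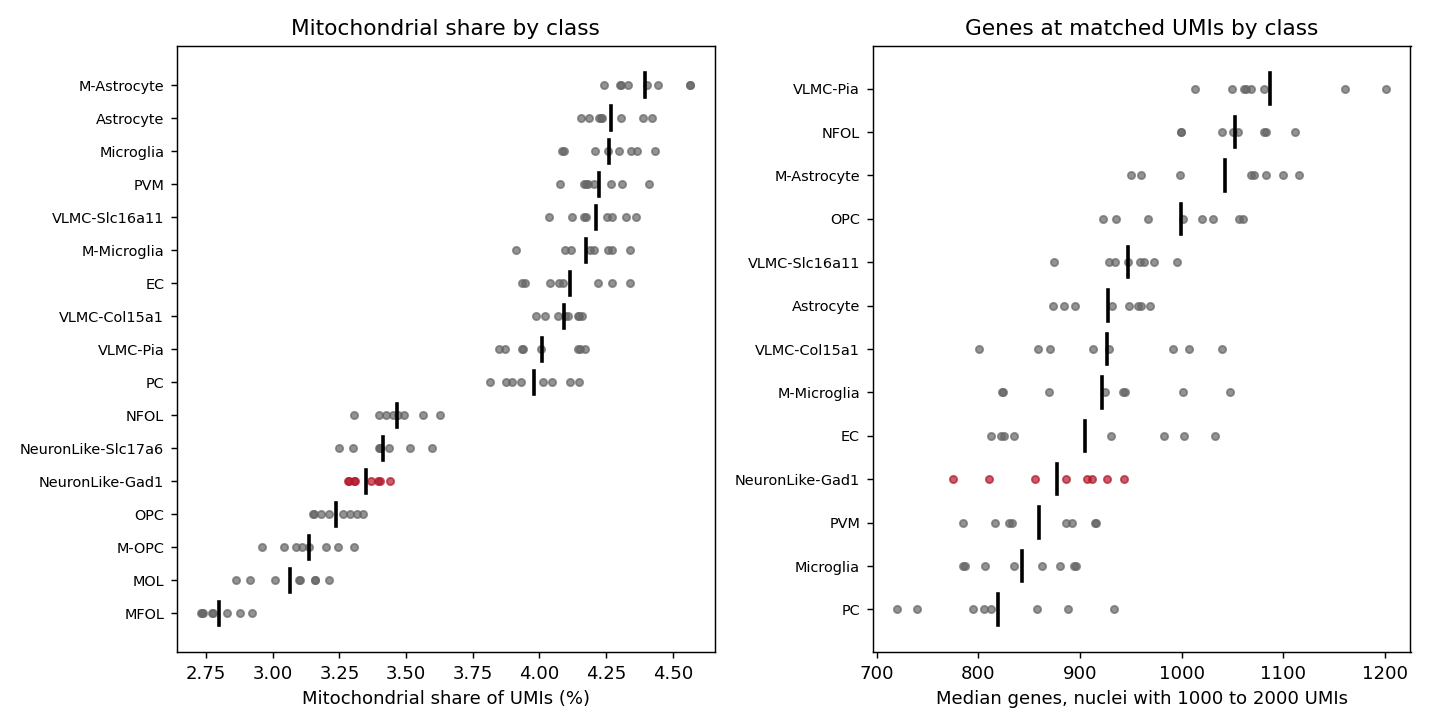
Left, mitochondrial share of UMIs (%, x axis) in 17 classes. Right, median detected genes among nuclei with 1000 to 2000 UMIs (x axis) in the 13 classes with at least 5 such nuclei in every library. Points are libraries, black lines their means and red marks NeuronLike-Gad1, which stands at 3.35% on the left, below astrocytes and microglia, and at 877 genes on the right.

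Between genotypes the mitochondrial share of NeuronLike-Gad1 did not pass the test. The log2 difference was 0.03 (95% interval -0.06 to 0.11, adjusted p = 0.973 in limma) in the VGlut2 model and 0.01 (-0.08 to 0.10, adjusted p = 0.955 in limma) in the Ip3r2 model. Limma called 0 of 17 classes (0%) in each, with 0 at an unadjusted p under 0.05.

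Genes were also compared at like depth, among nuclei with 1000 to 2000 UMIs, which took in 403 of the 783 NeuronLike-Gad1 nuclei and 12 of the 158 in the second island. The library medians ran from 775 to 943 genes, with a mean of 876.9 ± 58.9 (SD, n = 8). NeuronLike-Slc17a6 had too few nuclei in this window. NeuronLike-Gad1 differed past the threshold from 7 of 12 classes, beside 70.5% of the 78 pairs. OPCs were above it in 8 of 8 libraries, at a log2 difference of -0.19 (adjusted p = 0.0132, exact sign flips). Astrocytes, at -0.08, and microglia, at 0.06, did not pass (adjusted p = 0.0535 each, exact sign flips). The window still left depth unequal, with mean medians of 1452 UMIs in NeuronLike-Gad1, 1660.5 in astrocytes, 1696 in OPCs and 1207 in microglia.

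With a line fitted in each class and library and read at 1500 UMIs, an alternative chosen after seeing the data, 10 of 12 classes differed and the order changed. NeuronLike-Gad1 was then above astrocytes by 0.06 on the log2 scale in 8 of 8 libraries (adjusted p = 0.0107), below OPCs by a log2 difference of -0.02 in 6 of 8 (adjusted p = 0.0381) and below microglia by -0.15 in 8 of 8 (adjusted p = 0.0107, exact sign flips). Between 2000 and 4000 UMIs, where NeuronLike-Slc17a6 could be compared, its log2 difference was -0.10 (adjusted p = 0.247, exact sign flips) and 2 of 11 classes differed. OPCs and astrocytes did not pass there, with NeuronLike-Gad1 above each in 4 of 8 libraries at log2 differences of 0.014 (adjusted p = 0.798) and 0.032 (adjusted p = 0.606, exact sign flips). Between genotypes the genes of NeuronLike-Gad1 at 1000 to 2000 UMIs did not pass, at 0.01 (95% interval -0.14 to 0.16, adjusted p = 0.998 in limma) in the VGlut2 model and 0.06 (-0.09 to 0.20, adjusted p = 0.912 in limma) in the Ip3r2 model, with 0 of 13 classes (0%) called and 0 at an unadjusted p under 0.05.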

How the data were processed

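The members and class lists were chosen with earlier results of these data known. Cell Ranger and the mm10 build are named in the submitters' processing notes. By the methods the authors dropped barcodes under 200 genes, removed doublets with Scrublet, joined libraries with Scanorama, and clustered and named nuclei in Scanpy. The classes come from the same reads as the depths compared. The deposited table gives UMIs and genes per nucleus as raw counts, and a mitochondrial fraction of UMIs as the authors computed it, which times the UMI count was whole within 0.001 in all 44021 nuclei. Class, library and map positions are as deposited. Model, genotype and sex matched the labels in 8 of 8 libraries.

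Here 4 astrocyte groups were joined, leaving 17 classes. Log2 odds of shares (0.5 added) and log2 library medians were compared with limma 3.58.1 in R 4.3.3, 1 mean per group over 8 libraries, Benjamini-Hochberg adjusted over classes with at least 5 nuclei in each library. The sexes were compared on depth after the values were seen. The mitochondrial share was pooled, with 0.5 added to its UMIs and 1 to all UMIs. The share was also tested with edgeR 4.0.16 on counts of nuclei. Classes were compared within libraries by exact two-sided sign flips (smallest p 0.00781), adjusted over pairs. P-values rest on the spread between libraries of different mice. In limma, UMIs, genes and mitochondrial share used 1 spread pooled over all 17 classes, not that of NeuronLike-Gad1 alone. Those fits had 68 degrees of freedom between genotypes and 51 between sexes. They count classes of the same libraries as independent. The threshold was 0.05. Islands came from DBSCAN (distance 1.5, minimum 5, scikit-learn 1.9.0); a distance of 1 gave 4 islands with 601 and 151 nuclei in the first and second, and a distance of 2 gave 2 islands of 624 and 158. Classes named are NeuronLike-Gad1, NeuronLike-Slc17a6, astrocytes, OPCs and microglia, any class past a threshold between genotypes or sexes, and the neighbours of NeuronLike-Gad1 in each order. MOL and the class at an unadjusted p under 0.05 were named after their values were seen.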

Additional observations from a re-analysis of the deposited data

How the results depend on the processing

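With 2 libraries a group, directions near 0 were not stable. The VGlut2 cKO minus WT log2 difference in the share of NeuronLike-Gad1 was -0.064 in edgeR, that of UMIs -0.0054 with nuclei of at least 500 UMIs, and that of genes 0.021 as the mean of log2 values. The Ip3r2 KO minus WT difference in mitochondrial share was -0.0017 as the mean share per nucleus, and that of genes at 2000 to 4000 UMIs was -0.066. The female minus male difference was 0.56 for UMIs as the mean of log2 values, no longer past the threshold, and -0.011 for genes predicted at 1500 UMIs. The cause was not tested. Genes at matched UMIs differed from 4 classes with at least 20 nuclei per library (fewer classes were tested) and from 2 at 2000 to 4000 UMIs. A window of 500 to 1000 UMIs could not be run, since a library had fewer than 5 NeuronLike-Gad1 nuclei in it.

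Leaving out 1 library at a time, the VGlut2 difference ran from -0.60 to 0.74 for the share, -0.59 to 0.61 for UMIs, -0.49 to 0.39 for genes, 0.0061 to 0.045 for the mitochondrial share and -0.10 to 0.12 for genes at matched UMIs. The Ip3r2 difference ran from -0.85 to -0.21, 0.028 to 0.16, 0.044 to 0.15, -0.024 to 0.043 and 0.036 to 0.076. The difference between models ran from -0.066 to 1.27 and that of the sexes from -0.12 to 0.54, both for the share. The sex difference ran from 0.33 to 0.72 for UMIs, 0.26 to 0.55 for genes and -0.031 to 0.071 for genes at matched UMIs. Classes that differed from NeuronLike-Gad1 were 7 to 13 for UMIs, 8 to 12 for genes, 14 to 15 for mitochondrial share, 5 to 7 for genes at matched UMIs and 0 to 8 for the spread. NeuronLike-Gad1 minus NeuronLike-Slc17a6 was -0.63 to -0.47 for UMIs, -0.50 to -0.37 for genes, -0.037 to -0.014 for mitochondrial share and 0.31 to 0.40 for the spread.

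With the sex-matched pair of a model as a replicate block no call changed. The log2 difference in share was 0.07 (adjusted p = 0.976 in limma) in the VGlut2 model and -0.53 (adjusted p = 0.561 in limma) in the Ip3r2 model. Deviations from the group means of same-sex WT and mutant libraries correlated at 0.54 in the VGlut2 and 0.27 in the Ip3r2 model over 17 classes. Of 220 alternative values of a difference, 172 kept their direction and side of the threshold, and of 54 alternative counts of classes 39 were within 1.5 times the reported count. Many of the 220 could not change direction, so their count does not measure stability. A genotype difference keeps its estimate in the replicate block and without a library of the other model. NeuronLike-Slc17a6 had 15 to 32 nuclei per library, which limits the precision of its medians.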
